A study of Mus musculus with 5 samples.

Results

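Chemokine ligands are small secreted or membrane-anchored proteins, named Ccl, Cxcl, Cx3cl and Xcl after the spacing of their first cysteines, and 34 mouse gene symbols of this family were followed in 5 cultures of brain cells. The members are those of the family list by symbol, and the rule has no threshold on a measured value. Of the 34 symbols, 32 matched a row among the 20178 RefSeq transcripts of the read count files, and Ccl28 and Cxcl11 were not analysed here. Each condition was 1 RNA-seq library, so no difference below has a replicate check, and every interval covers counting error only.

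The libraries came from cells of ICR mice grown to passage 2. AST-VM held astrocytes of the ventral midbrain (VM), and AST-CTX held astrocytes of the cortex, both taken at postnatal day 5 and both called astrocyte progenitors in their cell type entries. NPC-CTX held neural progenitor cells of the cortex from embryonic day 12. The other 2 libraries were VM astrocytes given lentivirus, and here the labels contradict each other. The library titled C (AST-VM C) has an entry for Nurr1 plus Foxa2 virus, and the library titled NF (AST-VM NF) has an entry for mock virus. Nurr1 (gene Nr4a2) and Foxa2 are transcription factors of midbrain dopamine neurons. According to the study's methods the factors were driven by a CMV promoter, which is not restricted to astrocytes, the Foxa2 cDNA was from rat, and the control virus was the empty backbone. The methods also describe glial cultures of this kind as holding microglia beside astrocytes.

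The titles were followed, and both transduced genes were checked first. Foxa2 had 68 reads in AST-VM, 15 in the library titled C and 216 in the library titled NF, 16.0-fold higher in NF than in C (95% counting interval 9.47 to 29.0). For Nr4a2 the counts were 81 in AST-VM, 53 in C and 183 in NF. Both genes were highest in the library titled NF, which goes with the titles and against the treatment entries, yet Foxa2 was also higher in the untransduced library than in the library titled C. Over all transcripts, by the 2-fold rule below, the library titled NF stood close to untransduced AST-VM (0.668% lower, 0.322% higher). The library titled C stood farther from it (8.48% lower, 7.30% higher), and the labels remain unresolved. If the treatment entries were right, every difference between NF and C below would change sign and their comparisons with AST-VM would change places.

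Library totals ran from 20010818 to 22554835 reads, a ratio of 1.13, so read counts of 1 gene can be set side by side. A chemokine was counted as lower or higher when its CPM (reads scaled to the library total), with 0.5 reads added, differed at least 2-fold and its FPKM (the same per kilobase of transcript) exceeded 1 in at least 1 of the 2 libraries. The library titled C stood apart from the other VM libraries, and NPC-CTX did not match its label in full. Myelin genes were highest in NPC-CTX, with 75411 reads of Mbp against 251 to 3543 elsewhere, and the astrocyte gene Gfap had 122531 reads there against 4316 to 27820. Of 9 astrocyte markers that passed, 3 were higher in NPC-CTX than in AST-CTX, 5 were not called and 1 was lower (Slc1a2). Markers of microglia and macrophages (18 of 19 listed genes with a row, Siglech at 0 in every library) summed to 85.1 CPM in NPC-CTX, 209 in AST-CTX, 581 in AST-VM, 2358 in the library titled C and 416 in the library titled NF. In NPC-CTX the monocyte receptor gene Cd14 gave 1134 reads, 16 of the 18 markers gave at most 11, and Trem2 was at 0. Fcrls, a microglial gene, had 734 reads in the library titled C and 1 to 5 elsewhere. The T cell receptor genes Cd3e and Cd3g had at most 1 read in any library. All 6 listed markers of T cells and NK cells summed to 2.04 CPM in the library titled C. That sum was 0.329 in AST-VM and 0.295 in the library titled NF, and none of the 6 passed the filter. Fewer cells of a type and less RNA per cell cannot be told apart in such bulk samples.

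Chemokines bind receptors of the G protein-coupled family and draw cells along their gradient. Astrocytes and microglia release many of them after injury or infection. CCR2 ligands draw monocytes, Ccl3, Ccl4, Ccl5, Ccl6 and Ccl9 (the macrophage CC ligands below) draw macrophages or T cells, and CXC ligands with the glutamate-leucine-arginine (ELR) motif draw neutrophils through CXCR2. CXCR3 ligands are induced by interferon, whereas homeostatic chemokines such as Cxcl12 guide migrating precursors and are made without inflammation. Transcription of inflammatory chemokines is commonly driven by NF-κB, which binds κB sites, by interferon-activated factors at the interferon-stimulated response element (ISRE), and by AP-1.

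Promoter sequences were available in RefSeq (GRCm38.p6) for 23 of the 32 members, and the 250 bases before the start were read for 6 of them. Ccl12 and Ccl3 are shown because they were the most reduced in the library titled NF against the library titled C among members with an entry, and Cxcl15 and Ccl20 because they were the most increased. Cxcl10 and Cxcl3, inflammatory chemokines with several matches, were added after their values and matches were seen. Capitals mark the κB consensus, the ISRE core (GAAA, any 2 bases, GAAA), the AP-1 site TGANTCA and the TATA box TATAAA, each searched on both strands, and sites of different motifs did not overlap in these 6. All are written 5′ to 3′ on the strand of the gene.
Ccl12 (chr11:82101595-82101844, plus strand): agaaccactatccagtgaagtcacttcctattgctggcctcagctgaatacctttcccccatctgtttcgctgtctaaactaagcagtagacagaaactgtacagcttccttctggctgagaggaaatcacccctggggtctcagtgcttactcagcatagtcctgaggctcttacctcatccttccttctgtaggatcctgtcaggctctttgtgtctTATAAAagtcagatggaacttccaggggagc
Ccl3 (chr11:83649379-83649628, minus strand): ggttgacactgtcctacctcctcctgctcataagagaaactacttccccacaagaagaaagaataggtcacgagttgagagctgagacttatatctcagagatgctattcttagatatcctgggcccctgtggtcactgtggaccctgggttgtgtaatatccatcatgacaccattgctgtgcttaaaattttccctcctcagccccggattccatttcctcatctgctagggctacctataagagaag
Cxcl15 (chr5:90794284-90794533, plus strand): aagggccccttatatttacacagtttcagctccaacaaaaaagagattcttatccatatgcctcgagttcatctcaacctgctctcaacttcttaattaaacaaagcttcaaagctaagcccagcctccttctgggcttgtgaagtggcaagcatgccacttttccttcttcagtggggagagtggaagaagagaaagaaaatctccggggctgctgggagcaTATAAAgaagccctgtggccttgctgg
Ccl20 (chr1:83116516-83116765, plus strand): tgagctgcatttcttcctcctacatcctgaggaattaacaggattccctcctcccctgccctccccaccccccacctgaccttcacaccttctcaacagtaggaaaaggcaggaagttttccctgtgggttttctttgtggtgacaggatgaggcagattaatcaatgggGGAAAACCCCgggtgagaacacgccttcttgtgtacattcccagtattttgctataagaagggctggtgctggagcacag
Cxcl10 (chr5:92348890-92349139, minus strand): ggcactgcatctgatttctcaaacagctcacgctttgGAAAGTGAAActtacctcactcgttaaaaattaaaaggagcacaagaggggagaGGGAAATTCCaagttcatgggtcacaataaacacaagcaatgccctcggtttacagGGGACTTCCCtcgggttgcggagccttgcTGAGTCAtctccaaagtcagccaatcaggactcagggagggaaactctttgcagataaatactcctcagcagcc
Cxcl3 (chr5:90785851-90786100, plus strand): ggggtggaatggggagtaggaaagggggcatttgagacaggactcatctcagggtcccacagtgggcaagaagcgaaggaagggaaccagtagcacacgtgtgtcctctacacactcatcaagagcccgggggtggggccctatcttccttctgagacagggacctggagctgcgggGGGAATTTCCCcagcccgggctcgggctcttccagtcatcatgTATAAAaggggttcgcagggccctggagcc

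A κB match was present in the 250 bases of 6 of the 23 members (26.1%) and of 3.90% of all 32851 promoter entries. The 6 were Ccl9, Ccl20, Cxcl1, Cxcl2, Cxcl3 and Cxcl10. Cxcl1, Cxcl2 and Cxcl3, neighbours on chromosome 5, carried the same letters GGGAATTTCC, beginning 71, 97 and 73 bases before their starts. Cxcl10 held 2 κB matches, an ISRE core and an AP-1 site, as printed above. An ISRE core was found for 2 of the 23 (8.70%) and in 2.98% of all entries, an AP-1 site for 3 (13.0%) and in 6.75%, and a TATA box for 10 (43.5%) and in 12.4%. A member was counted when any of its entries matched, whereas the background is a share of single entries, so these shares are unlike measures. The TATA box of Ccl25 was not in its first entry. Of the 9 members with an entry that differed between NF and C, a κB match stood in 1 of the 5 that were lower (Ccl9) and in 2 of the 4 that were higher (Ccl20 and Cxcl10). Ccl3, Ccl12 and Cxcl15 had none in this window.

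Chemokine transcripts were most abundant in the VM cultures. The 32 members took 0.0316% of the reads in NPC-CTX (interval 0.0308 to 0.0324), 0.119% in AST-CTX, 0.280% in AST-VM, 0.328% in the library titled C and 0.214% in the library titled NF. Their summed FPKM was 217, 841, 2304, 2999 and 1673 in that order. Of the 32, 24 exceeded an FPKM of 1 in at least 1 library. Ccl1, the CCR8 ligand, and Xcl1, the lymphocyte chemokine lymphotactin, had no read in any library, which allows at most 3 reads, or 0.133 to 0.150 CPM depending on the library. Ccl11, Ccl22, Ccl24, Cxcl9, Cxcl13 and Cxcl17 stayed at or below 20 reads.

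Ccl2, the main monocyte attractant, was the most abundant member per length in every astrocyte library, at an FPKM of 161 in AST-CTX, 556 in AST-VM, 941 in the library titled C and 357 in the library titled NF. NPC-CTX had another leading chemokine, Cxcl10, whose FPKM of 112 made up 51.5% of the members' sum there. Ccl6, Cxcl1, Ccl7 and Cx3cl1 followed Ccl2 in AST-VM, at 359, 337, 215 and 167. In the library titled C, Ccl3 moved to the second place at 489, against 117 in AST-VM.

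**Figure D1:**
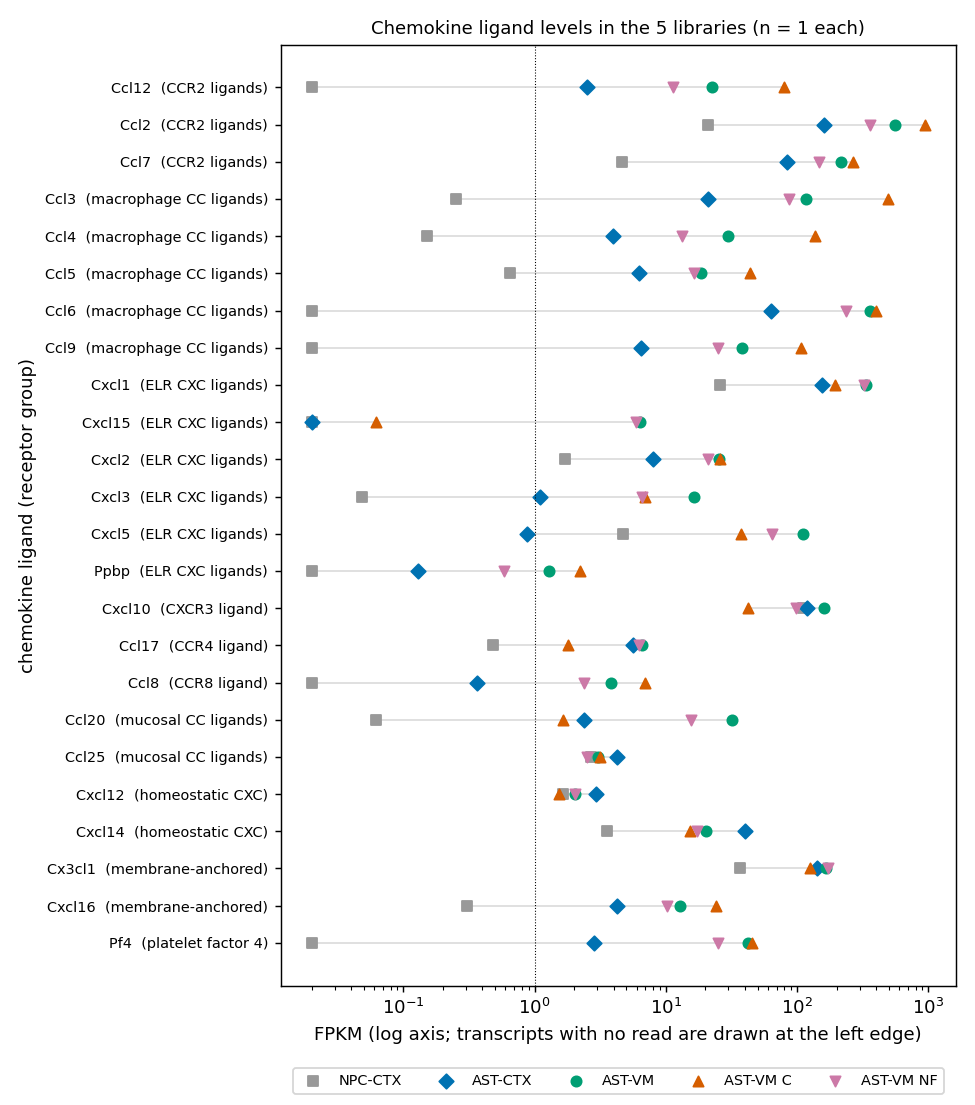
FPKM (log axis) of the 24 chemokine ligands that exceeded 1 in at least 1 library, ordered by receptor group; each point is 1 library and points at the left edge stand for no read. The library titled C (triangles) lies at the right end for the CCR2 and macrophage CC ligands, with Ccl2 at 941, and at the left end of the VM libraries for Cxcl15, Cxcl10, Ccl17 and Ccl20.

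The first comparison sets the library titled NF against the library titled C. By title this is Nurr1 and Foxa2 virus against control virus in VM astrocyte cultures, but the treatment entries say the reverse. Relative to the library titled C, 9 of the 24 chemokines that passed the filter were lower in the library titled NF and 4 were higher. The background for all 12701 tested transcripts was 9.73% lower and 9.53% higher. The members' median log2 ratio was -0.53, and that of all transcripts was -0.02. The 9 lower members were Ccl2, Ccl3, Ccl4, Ccl5, Ccl8, Ccl9, Ccl12, Cxcl16 and Ppbp. The higher ones were Ccl17, Ccl20, Cxcl10 and Cxcl15.

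All 3 CCR2 ligands had fewer reads in NF than in C, and 2 of them passed the threshold. Ccl2 had 338 reads in NPC-CTX, 2797 in AST-CTX, 9583 in AST-VM, 17177 in the library titled C and 5869 in the library titled NF. NF was thus 2.64-fold below C (interval 2.56 to 2.72) and was also the lowest of the 3 VM libraries. Ccl12, a second mouse monocyte attractant, had 0, 29, 257, 961 and 125 reads in the same order of libraries and was 6.93-fold lower in NF than in C (5.75 to 8.42). Ccl7, which binds CCR2 and other receptors, had 74, 1453, 3670, 4787 and 2383 reads. Its ratio of 1.81 (1.72 to 1.90) stayed under the threshold.

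Among the 5 macrophage CC ligands, 4 were lower in NF than in C. Ccl3 and Ccl4 are the macrophage inflammatory proteins. Ccl3 had 4 reads in NPC-CTX, 355 in AST-CTX, 1972 in AST-VM, 8745 in the library titled C and 1409 in the library titled NF, which is 5.60-fold less in NF than in C (5.29 to 5.92). Ccl4 had 2, 56, 418, 2048 and 180 reads, and its 10.3-fold reduction (8.81 to 12) was the largest among the 9 lower members. The gene extents of Ccl3 and Ccl4 overlap in the GRCm38.p6 annotation (chr11:83647843-83649378 and chr11:83648624-83664683), so reads in the shared stretch are uncertain.

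Ccl9, a mouse ligand of CCR1, had 0, 420, 2465, 7254 and 1534 reads in the same order and was 4.26-fold lower in NF than in C (4.04 to 4.51). Ccl5 (RANTES), which also draws T cells, had 7, 72, 211, 532 and 177 reads and was 2.71-fold lower (2.28 to 3.23). Ccl6, another CCR1 ligand, was abundant in all 4 astrocyte libraries, with 0, 1965, 11017, 12927 and 6960 reads. Its NF to C difference of 1.67-fold (1.63 to 1.72) was the smallest of this group.

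The CCR8 ligand Ccl8 had 0, 4, 42, 81 and 25 reads and was 2.92-fold lower in NF than in C (1.85 to 4.78). Cxcl16, made as a transmembrane protein that binds CXCR6, had 15, 225, 671, 1344 and 515 reads and was 2.35-fold lower (2.12 to 2.61). Its membrane-anchored companion Cx3cl1 (fractalkine), the ligand of CX3CR1, had 2330, 9618, 11159, 8970 and 11084 reads. Cx3cl1 was among the most even members over the astrocyte libraries, and NF exceeded C by 1.37-fold (1.33 to 1.41).

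The chemokines known from platelets were also measured. Ppbp had 0 reads in NPC-CTX, 3 in AST-CTX, 30 in AST-VM, 54 in the library titled C and 13 in the library titled NF, a 3.75-fold reduction in NF against C (2.02 to 7.48). Pf4 had 0, 36, 534, 608 and 301 reads, and its NF to C ratio of 1.82-fold lower (1.58 to 2.10) did not pass. The platelet receptor genes Gp1ba and Gp9 had at most 2 reads in any library. Itga2b, another receptor gene of the platelet list, was detected. It made up the list's 11.4 CPM in NPC-CTX, where the other 4 genes were at 0.

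Microglial and macrophage markers moved with the chemokines that were lower in NF. Of the 16 markers that passed the filter, 15 were lower in NF than in C, none was higher, and their summed level was 5.67-fold lower. Single markers spread widely around that sum, from Tmem119 (12.9 CPM in C, 8.21 in NF) to Fcrls (32.5 and 0.0983). The ratios of Ccl3 (5.60), Ccl9 (4.26) and Ccl12 (6.93) lay nearest the sum, and that of Ccl4 (10.3) was larger. Those of Ccl2 (2.64), Ccl5 (2.71), Ccl8 (2.92), Cxcl16 (2.35) and Ppbp (3.75) were smaller. Ccl6 (1.67) and Ccl7 (1.81), which were not called, were smaller still. The part of these cells in the chemokine differences was not tested. Summed astrocyte markers differed by 1.03-fold, but single markers moved in both directions, with 2 of 9 lower and 1 higher. Gfap (489 CPM in C, 212 in NF) and S100b (48.5 and 16.2) were lower, and Aldh1l1 (99.7 and 308) was higher.

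The chemokines that were higher in NF than in C were lowest of the VM libraries in the library titled C. Cxcl15 (lungkine), an ELR chemokine known from lung epithelium, had no read in NPC-CTX or AST-CTX, 289 in AST-VM, 3 in the library titled C and 255 in the library titled NF. The NF to C ratio was 94.3 with a wide interval (31.9 to 460.1), set by the 3 reads in C. Ccl20, the ligand of CCR6, had 1, 41, 549, 30 and 257 reads, 9.50-fold higher in NF than in C (6.49 to 14.4). In both genes the library titled C was far below the untransduced and the NF libraries.

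Cxcl10, the interferon-induced CXCR3 ligand, had 2470, 2819, 3789, 1054 and 2217 reads and was 2.33-fold higher in NF than in C (2.17 to 2.51). Ccl17, a CCR4 ligand, had 5, 62, 72, 21 and 66 reads and was 3.49-fold higher (2.11 to 6.0). Both were at their highest count in untransduced AST-VM. The other CXCR3 ligand with a row, Cxcl9, had 2, 6, 20, 4 and 12 reads and failed the filter.

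The other ELR chemokines differed less between NF and C. Cxcl1 had 498 reads in NPC-CTX, 3191 in AST-CTX, 6849 in AST-VM, 4223 in the library titled C and 6326 in the library titled NF, 1.66-fold more in NF than in C (1.60 to 1.73). Cxcl5 had 158, 31, 3894, 1397 and 2181 reads, a 1.73-fold difference in the same direction (1.62 to 1.85). Neither reached the threshold. Cxcl2 had 37, 187, 588, 631 and 467 reads and Cxcl3 had 1, 24, 357, 160 and 136. For Cxcl3 the interval of the NF to C ratio included equality (1.06-fold lower, 0.839 to 1.34). The 6 ELR ligands therefore did not move together, although Cxcl1, Cxcl2, Cxcl3, Cxcl5, Cxcl15 and Ppbp lie within 1 cluster on chromosome 5 (chr5:90759298-90905938 from the first start to the last end).

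The homeostatic chemokines that passed the filter were under the threshold in NF against C. Cxcl12, the ligand of CXCR4, had 187, 359, 246, 197 and 233 reads, and NF exceeded C by 1.31-fold (1.08 to 1.59). Cxcl14 had 130, 1574, 789, 628 and 648 reads, a ratio of 1.14 (1.02 to 1.28). Cxcl13 and Cxcl17 of the same group failed the filter, with 15 reads of Cxcl13 in C and 1 in NF (13.5-fold lower, 2.08 to 569) and with 1 and 3 reads of Cxcl17. The mucosal chemokine Ccl25, the ligand of CCR9, had 57, 97, 69, 75 and 54 reads, with an interval that included equality (1.25-fold lower, 0.871 to 1.81).

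**Figure D2:**
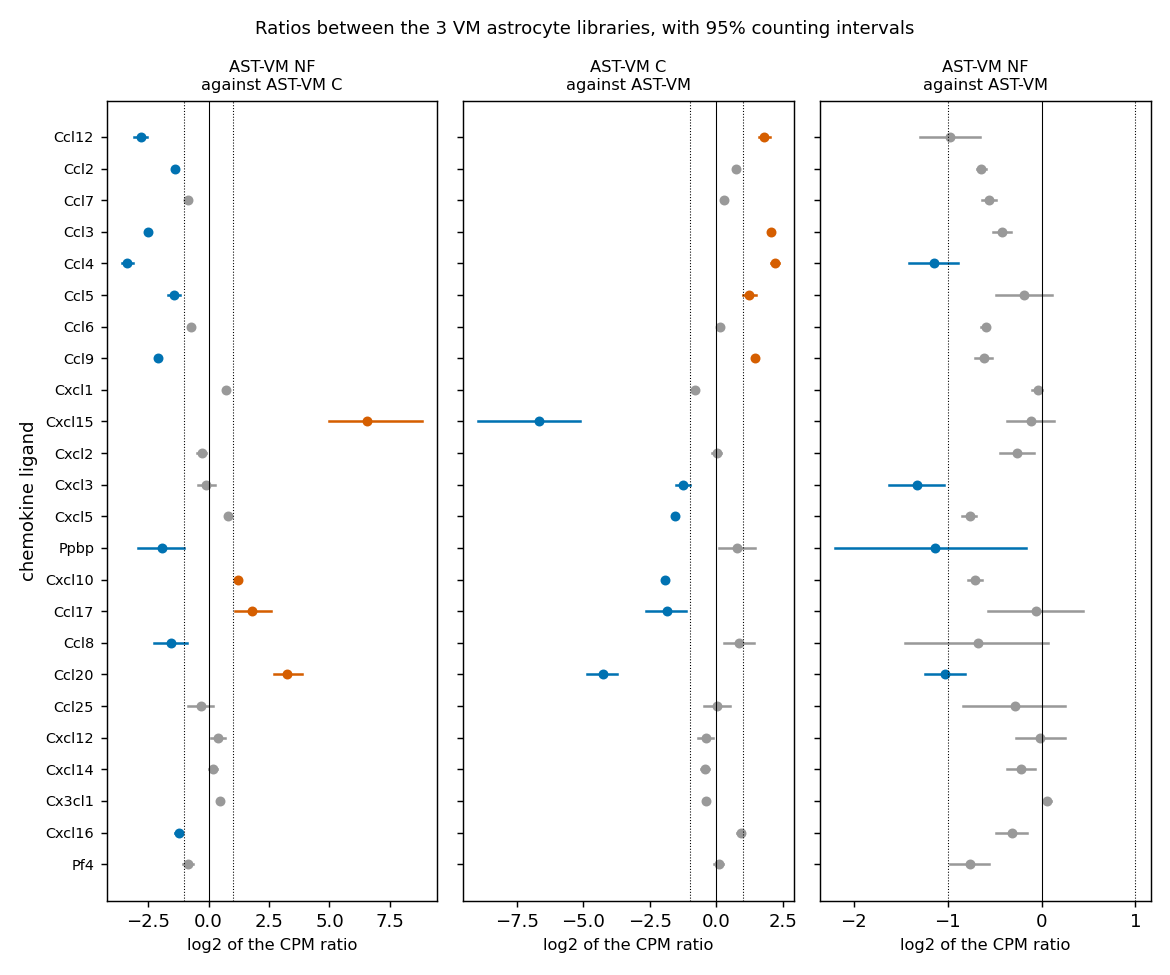
Log2 CPM ratios of the 24 chemokine ligands between the 3 VM libraries, with exact 95% counting intervals; blue marks members called lower, orange those called higher, grey the rest, dotted lines 2-fold, and each panel has its own axis range. CC ligands such as Ccl4 lie on opposite sides in the first and second panels, and so does Cxcl15, while 23 of 24 points lie left of 0 in the third.

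The untransduced AST-VM library shows how the NF to C differences were made up. All 3 comparisons among these libraries share samples, so their values are set side by side and are not independent. In the library titled C against AST-VM, 5 members were higher (Ccl3, Ccl4, Ccl5, Ccl9, Ccl12) and 6 lower (Ccl17, Ccl20, Cxcl3, Cxcl5, Cxcl10, Cxcl15), against a background of 7.30% higher and 8.48% lower among 12703 transcripts. In the library titled NF against AST-VM, 4 were lower (Ccl4, Ccl20, Cxcl3, Ppbp) and none higher, against 0.668% and 0.322% of 12428. The median log2 ratio of the members was 0.07 for C and -0.58 for NF, and that of all transcripts was -0.01 and -0.05.

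Against AST-VM, the library titled C had 4.19-fold more Ccl3 (3.99 to 4.40), 4.63-fold more Ccl4 (4.16 to 5.15), and 2.78-fold more Ccl9 (2.65 to 2.91). Ccl12 was 3.53-fold higher (3.07 to 4.07) and Ccl5 2.38-fold higher (2.03 to 2.81). Ccl2 was 1.69-fold higher (1.65 to 1.74), below the threshold. The microglial and macrophage markers moved with them: 15 of 16 were higher and their sum was 4.06-fold higher. Whether these cells contributed was not tested.

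In the opposite direction, Ccl20 was 19.4-fold lower in the library titled C than in AST-VM (13.4 to 29.0). Cxcl10 was 3.81-fold lower (3.55 to 4.08), Cxcl5 2.95-fold lower (2.78 to 3.14) and Cxcl3 2.36-fold lower (1.96 to 2.86). Ccl17 was 3.63-fold lower (2.21 to 6.22). Cxcl15 was 102-fold lower, with an interval of 34.6 to 498. These chemokines fell in the library in which microglial and macrophage markers were highest, while summed astrocyte markers were 1.16-fold lower there. Of 9 astrocyte markers, 1 was called lower (Aldh1l1, 349.6 CPM in AST-VM and 99.7 in C) and 1 higher (S100b, 21.1 and 48.5). Summed fibroblast and mural cell markers were 1.55-fold lower, but 6 of the 10 genes of that list were above AST-VM and 4 below, with a median log2 ratio of 0.51.

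The library titled NF lay slightly below AST-VM for most members. Of the 24, 23 had a log2 ratio below 0, the exception being Cx3cl1 at 1.04-fold higher (1.01 to 1.07). Among all 12428 tested transcripts, 7142 were below 0. Under edgeR's trimmed mean of M-values (TMM) scaling 21 were below 0, since Cxcl1 and Cxcl12 changed sign, and under DESeq2 size factors 22. Cxcl3 was 2.51-fold lower (2.05 to 3.08), Ccl4 2.22-fold (1.86 to 2.66), Ccl20 2.04-fold (1.76 to 2.37) and Ppbp 2.20-fold (1.12 to 4.60). Only the interval of Cxcl3 lay wholly past 2-fold. The marker sum of microglia and macrophages was 1.4-fold lower in NF than in AST-VM, with 1 of 14 markers called. All 14 of those markers had a log2 ratio below 0, with a median of -0.51, so they moved with the chemokines, and their part was not tested.

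The order of the 3 VM libraries was noted for these members, and the share of each order over all transcripts was not computed. Over all transcripts, the library titled C lay farther from AST-VM (8.48% lower, 7.30% higher) than NF did (0.668% and 0.322%). An extreme place of C is therefore not particular to chemokines. For 14 of the 24 members the CPM was highest in the library titled C and lowest in the library titled NF. For 8 it was highest in AST-VM and lowest in the library titled C, namely Ccl17, Ccl20, Cxcl1, Cxcl5, Cxcl10, Cxcl12, Cxcl14 and Cxcl15. Cxcl3 was highest in AST-VM and lowest in NF, and Cx3cl1 was highest in NF and lowest in C. For 14 members both neighbouring pairs in the order differed beyond the counting interval. Ccl25 had neither pair so separated, so its order is not resolved.

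**Figure D3:**
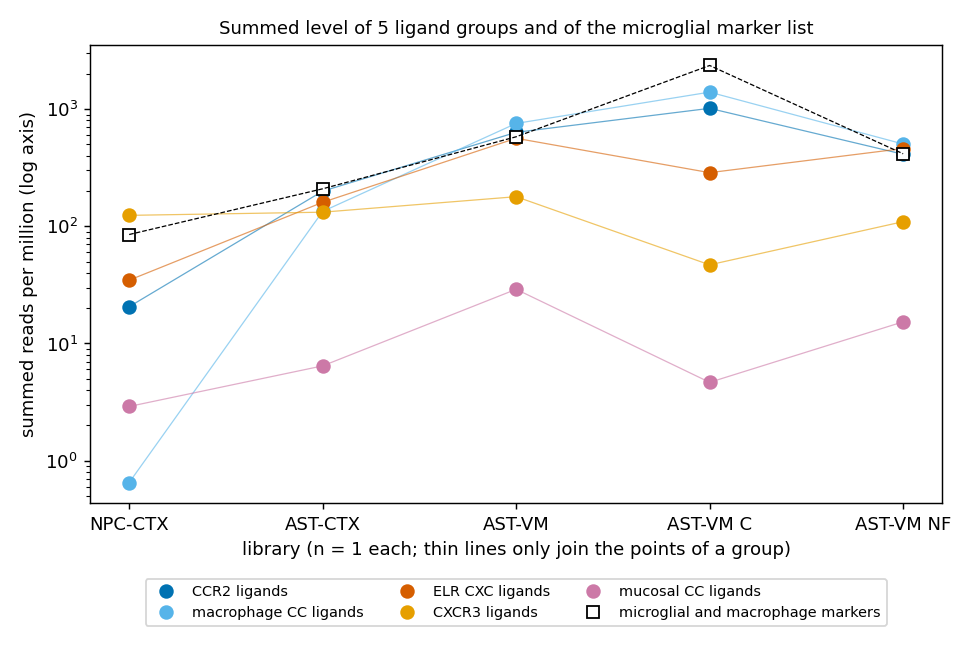
Summed CPM (log axis) of 5 receptor groups of chemokine ligands and of the microglial and macrophage marker list in the 5 libraries. From AST-VM to the library titled C, the CCR2 ligands went from 634 to 1016 and the macrophage CC ligands from 755 to 1397, as the marker sum went from 581 to 2358, while ELR ligands went from 564 to 287 and CXCR3 ligands from 179 to 46.9.

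The next comparison asks how astrocytes of the cortex differ from those of the VM. Chemokines were lower in AST-CTX: 18 of the 24 that passed were lower and none was higher, while 9.89% of 12553 transcripts were lower and 4.49% higher. Their median log2 ratio was -2.13, against -0.05 for all transcripts. The 18 comprised all 3 CCR2 ligands, all 5 macrophage CC ligands, all 6 ELR ligands, and Ccl8, Ccl20, Cxcl16 and Pf4.

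The neutrophil attractants were spread widely, and the summed CPM of the 6 was 3.52-fold lower, against 5.64-fold for the 5 macrophage CC ligands. Cxcl5 was 126-fold lower in AST-CTX than in AST-VM (88.9 to 186), with 31 against 3894 reads. Cxcl15, with no read in AST-CTX, was at least 96.9-fold lower, taking 3 reads as the limit. Cxcl3 was 15.0-fold lower (9.90 to 23.7). The smallest differences of the group were those of Cxcl2, 3.16-fold (2.68 to 3.75), and of Cxcl1, its most abundant member, 2.16-fold (2.07 to 2.25).

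The CC ligands spanned a range between these values. Ccl12 was 8.92-fold lower in AST-CTX (6.06 to 13.6), Ccl4 7.51-fold (5.67 to 10.1), Ccl6 5.64-fold (5.38 to 5.92), Ccl3 5.59-fold (4.99 to 6.28), and Ccl2 3.45-fold (3.31 to 3.60). Ccl20 was 13.5-fold (9.80 to 19.0) and Pf4 14.9-fold lower (10.6 to 21.5). Microglial and macrophage markers were lower too, in 13 of 14 cases and by 2.78-fold in sum. Fibroblast and mural cell markers were 2.21-fold lower in sum, with 4 of 10 called lower and 0 higher. Endothelial markers were 2.31-fold lower in sum, with 3 of 4 called lower and 0 higher. The part of any of these cell types was not tested. Of the neutrophil markers, S100a8 had 15 reads in AST-CTX and 116 in AST-VM, and the other 4 had at most 2.

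A few chemokines were shared by both regions. Cx3cl1 was 1.17-fold lower in AST-CTX (1.14 to 1.20) and Cxcl10 1.35-fold lower (1.29 to 1.42). For Ccl17 the interval included equality (1.17-fold lower, 0.821 to 1.67). Cxcl14, Cxcl12 and Ccl25 were the members with more reads in the cortex. Cxcl14 came closest to the threshold, at 1.98-fold higher (1.82 to 2.16), and passed it under the other scalings. Astrocyte markers in sum were 2.31-fold higher in AST-CTX, with 6 of 9 called higher.

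**Figure D4:**
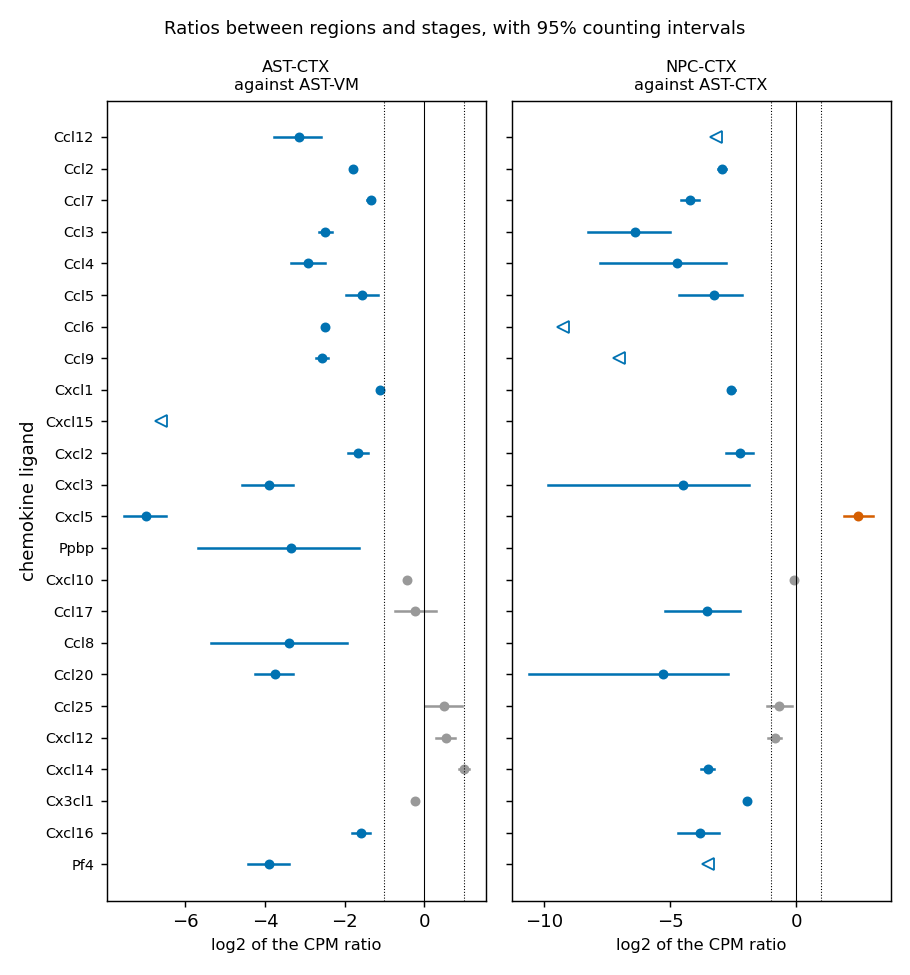
Log2 CPM ratios with exact 95% counting intervals for AST-CTX against AST-VM and for NPC-CTX against AST-CTX; colours and dotted lines are as in the plot of the VM libraries, and open arrowheads are bounds where a library had no read. Cxcl5 lies farthest left in the first panel among points with an interval (126-fold lower) and is the only member right of the upper dotted line in the second (5.46-fold higher).

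The last comparison sets NPC-CTX, labelled as cortical progenitors, against AST-CTX. Markers in NPC-CTX did not match that label in full, as given above. Summed neural precursor markers were 1.82-fold lower in NPC-CTX than in AST-CTX (4815 against 8756 CPM), although 6 of the 7 genes were above AST-CTX. In NPC-CTX, 17 of the 21 chemokines that passed were lower and 1 was higher than in AST-CTX, against a background of 17.9% lower and 20.1% higher among 12623 transcripts. The members' median log2 ratio was -3.49, and that of all transcripts 0.19. Other scalings moved the median of all transcripts by -0.167 to -0.185 here.

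Several CC ligands were at 0 in NPC-CTX. Ccl6, with 1965 reads in AST-CTX, was at least 611-fold lower in NPC-CTX, Ccl9 at least 131-fold and Ccl12 at least 9.02-fold. Ccl3, with 4 reads, was 82.9-fold lower (32.1 to 306). Ccl2 remained detectable, 7.73-fold lower (6.90 to 8.67). The 5 macrophage CC ligands summed to 0.650 CPM in NPC-CTX and 134 in AST-CTX. The microglial and macrophage list had 11 of 12 markers lower and 1 (Cd14) higher, and its part was not tested.

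Cxcl5 was the exception, with 158 reads in NPC-CTX and 31 in AST-CTX, 5.46-fold higher (3.70 to 8.30). Its FPKM was 4.76 in NPC-CTX and 0.871 in AST-CTX. Cxcl10 differed by 1.07-fold (1.01 to 1.13), and Cxcl12 and Ccl25 by 1.79-fold lower (1.5 to 2.15) and 1.59-fold lower (1.13 to 2.24), all under the threshold. Cxcl14 was 11.3-fold lower (9.45 to 13.6) and Cx3cl1 3.85-fold lower (3.68 to 4.03).

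The receptors for these ligands were mostly absent. Of 18 chemokine receptor genes with a row, 4 passed the filter in NF against C, and all 4 were lower. Ccr1 had 0 reads in NPC-CTX, 81 in AST-CTX, 427 in AST-VM, 1829 in the library titled C and 250 in the library titled NF, 6.60-fold lower in NF than in C (5.78 to 7.56). Ccr1 was thus highest in the same library as Ccl3, Ccl5, Ccl6 and Ccl9, which bind it.

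Cx3cr1, the microglial fractalkine receptor and itself a marker on the microglial list, had 2, 15, 30, 128 and 14 reads and was 8.24-fold lower in NF than in C (4.74 to 15.5). Cxcr4 had 348, 70, 220, 442 and 122 reads and was 3.27-fold lower (2.67 to 4.03). By contrast, the receptors of the most abundant monocyte and neutrophil ligands were near 0: Ccr2 had at most 3 reads, Cxcr2 at most 4 and Cxcr1 none. Ccr6, the receptor of Ccl20, had no read, Ccr4 had at most 1, Ccr8 none, Ccr9 at most 6, Cxcr6 at most 8 and Cxcr3 at most 14. In C against AST-VM, 3 of 4 receptors were higher, Ccr1 and Cx3cr1 among them, and in NF against AST-VM 0 of 3 were called. All 3 that passed in AST-CTX against AST-VM were lower, and in NPC-CTX against AST-CTX Ccr1 was lower and Cxcr4 higher.

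Atypical receptors take up chemokines without G protein signalling. Of 4 that passed in NF against C, 2 were lower (Ccrl2 and Ackr4) and Ackr1 was higher. Ccrl2, which presents chemerin and is usually listed with this group, had 16, 74, 178, 1056 and 207 reads and was 4.60-fold lower (3.96 to 5.37). Ackr3, a scavenger of Cxcl12, had 388, 573, 833, 1131 and 675 reads. Ackr1 had 172, 39, 47, 13 and 34.

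Proteases that trim or shed chemokines and upstream regulators were listed as well. Of 5 proteases that passed in NF against C, Mmp2 was higher (2.74-fold) and Mmp12 lower (2.17-fold). The sheddases Adam10 and Adam17, which release Cx3cl1 and Cxcl16, were not called in any of the 5 comparisons. Of 15 cytokine and signalling genes that passed, 5 were lower in NF than in C and 1 higher. These were named after their values were seen. Tnf, with 401 reads in the library titled C and 30 in the library titled NF, was 12.1-fold lower (8.31 to 18.1), Il1a 4.5-fold, Il1b 3.89-fold, Il6 3.08-fold and Irf7 2.02-fold lower, and Irf1 was 2.22-fold higher. Among the list's most abundant genes, Nfkbia had 5922 reads in the library titled C and 10269 in the library titled NF, and Rela had 2495 and 2047. Neither passed the threshold. Tnf and Il1b were the 2 genes of this list that were lower in NF than in AST-VM. In AST-CTX against AST-VM, 5 of 15 were lower, among them Il6 (8.91-fold) and Il1a (5.76-fold), and 3 of 5 proteases were lower, Mmp9 (11.4-fold), Mmp12 (8.59-fold) and Mmp2 (2.56-fold).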

How the data were processed

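Cell cultures were sequenced as 5 libraries, 1 per condition. The deposited files list, per RefSeq transcript, raw read counts and FPKM made by the authors. Per the study's methods, the authors trimmed bases of quality under 20, aligned reads with STAR to GRCm38/mm10 and counted exonic reads with HTSeq against RefSeq Release 105. The submitters' processing notes instead name build mm9, with STAR, HTSeq, DESeq and bcl2fastq 1.8.4; the files hold no coordinates. FPKM recomputed from counts, lengths and totals differed from the deposited FPKM by at most a relative 4.09e-05. Transcripts were named with RefSeq (GRCm38.p6) and GENCODE vM21 tables, 20093 of 20178 with a symbol.

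Counts were divided by library totals (20010818 to 22554835 reads). Log2 ratios had 0.5 reads added, and a transcript was called at 2-fold or more with FPKM above 1 in at least 1 of the 2 libraries. Printed folds are CPM ratios with exact (Clopper-Pearson) 95% intervals, and a library with no read was set at 3 reads. PCR duplicates are not marked, so intervals cover counting error only. With 1 library per condition no p-value was computed. The fold rule was tested on simulated data. Alternatives were TMM (edgeR 4.0.16), DESeq2 1.42.0 size factors, upper-quartile scaling, 5 reads added, other filters and cutoffs. Every member with FPKM above 1 in any library was named, and in other lists the genes with most reads, the receptors of described ligands and those said to be named afterwards. Members and lists were chosen with earlier results of these data known. Ratios were computed in Python 3.11.15 with scipy 1.17.1. Values of a few genes on these lists are not reported here.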

Additional observations from a re-analysis of the deposited data

Results flagged for a closer look

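Ccl4 differed from the untransduced VM library in opposite directions in the transduced libraries. Its log2 ratio was 2.21 in the library titled C and -1.15 in the library titled NF, both past the 2-fold threshold, from 418 reads in AST-VM, 2048 in C and 180 in NF. Ccl4 was the only member called in opposite directions against AST-VM, but the interval of its NF ratio (1.86 to 2.66-fold lower) included 2-fold. Ccl12 came close, with log2 ratios of 1.82 in C and -0.97 in NF. Like Ccl4, 14 of the 24 members were highest in C and lowest in NF, Ccl4 among them. With 1 library each, the difference between both Ccl4 ratios was not tested, and both share the AST-VM library.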

How the results depend on the processing

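Each of the 10 counts of called chemokines was recomputed under 8 alternatives. Of the 80 values, 68 stayed within 1.5 times the main count and 12 did not. Without the filter on low values, the number of higher members went from 4 to 7 in NF against C (Ccl24, Cxcl9 and Cxcl17 added), from 5 to 8 in C against AST-VM, from 0 to 2 in NF against AST-VM, from 0 to 1 in AST-CTX against AST-VM (Ccl22) and from 1 to 4 in NPC-CTX against AST-CTX; the added members had few reads. In NF against AST-VM, the 4 lower members became 0 at a 2.6-fold cutoff and 1 (Cxcl3) where the whole counting interval had to lie past 2-fold. Under TMM, DESeq2 and upper-quartile scaling, 1 member (Cxcl14) was higher in AST-CTX than in AST-VM, where the main count was 0. Requiring FPKM above 1 in both libraries left 6 lower and 0 higher members in NPC-CTX against AST-CTX. Most members fall below that level in NPC-CTX, whereas Cxcl5, the 1 higher member, fell below it in AST-CTX (0.871). Of 468 recomputed log2 ratios of single members, 441 stayed within their counting interval, 27 did not, and no called member changed sign. No paired analysis was possible because each condition had 1 library. Depth limits the members with few reads, such as Ppbp and Ccl8, and Cxcl15 in the library titled C.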

Other observations

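Another cell type list moved with the microglial one between the VM libraries. Of 7 mature oligodendrocyte genes that passed the filter, 6 were lower in NF than in C, with Mbp at 3543 reads in the library titled C and 277 in the library titled NF, and 6 of 7 were higher in C than in AST-VM. In NPC-CTX all 8 were higher than in AST-CTX, and the list summed to 7754 CPM there against 311. Neuronal genes were called in both directions in NF against C (2 lower and 1 higher of 5), as were fibroblast and mural cell genes (1 lower and 4 higher of 10), endothelial genes (1 lower and 1 higher of 4) and neural precursor genes (1 lower and 2 higher of 6). The platelet list, which holds Pf4 and Ppbp themselves, had 1 lower and 1 higher of 3. No marker of T cells and NK cells passed the filter, and of the neutrophil markers S100a8 alone did, at 372 reads in the library titled C and 35 in the library titled NF.

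A chemokine gene outside the followed list, Ccl27a, had 59 reads in NPC-CTX, 97 in AST-CTX, 82 in AST-VM, 33 in the library titled C and 57 in the library titled NF. Ccl26 had none.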
